A study of Mus musculus with 8 samples.

Results

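The G1 cyclins and inhibitors of cyclin-dependent kinases (CDKs) examined here were 7 mouse genes: the cyclins Ccnd1, Ccnd2, Ccnd3 and Ccne1, the kinase Cdk6, and the inhibitors Cdkn1a and Cdkn1b. Their regions were those that the authors' deposited table of H3K27ac assigns to one of these genes as the nearest gene, at a distance of at most 100 kb from the annotated transcription start site (TSS). The rule found 53 of 112137 regions: 24 for Cdk6, 12 for Ccnd3, 8 for Ccne1, 7 for Ccnd1, 1 for Cdkn1a, 1 for Cdkn1b and 0 for Ccnd2. One of the Cdk6 regions was listed at 0 in formative DKO cells, so 52 of 53 member regions, and 105643 regions in all, were above 0 in every group and entered the comparisons with DKO cells.

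D-type cyclins bind CDK4 and CDK6 and start the phosphorylation of the retinoblastoma protein in G1 phase, and cyclin E, bound to CDK2, carries the cell on into S phase. The p21 protein, encoded by Cdkn1a, and the p27 protein, encoded by Cdkn1b, bind these cyclin-CDK complexes and hold back their activity, and Cdkn1a is a classical target of the transcription factor p53. Mouse embryonic stem (ES) cells are known for a short G1 phase, high cyclin E and low D-type cyclin activity, and for a G1 phase that lengthens as they leave pluripotency. H3K27ac, acetylation of lysine 27 of histone H3, marks active promoters and enhancers, and H3K4me1, monomethylation of lysine 4, marks enhancers more widely.

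H3K27ac was measured by CUT&Tag, in which an antibody on the chromatin mark tethers a transposase that tags the DNA beside it for sequencing. The 8 libraries form 4 groups of 2: formative DKO, formative WT, naive DKO and naive WT ES cells. DKO cells lack both MLL3 and MLL4 (MLL3KO_MLL4KO in the labels), the H3K4 methyltransferases encoded by Kmt2c and Kmt2d, and the labels name the R1 line for the WT cells and no line for the DKO cells. Formative cells were collected 63 h after LIF2i, the culture condition that holds cells in the naive state, was withdrawn, and naive cells were kept in it. Replicates were grown and prepared apart, per the series' design text. The table gives 1 pooled log2(value + 1) per group, so differences that involve DKO cells have no SD, no n and no replicate check, and are described by size, with at least 2-fold (1 on the log2 scale) as the limit for calling a region higher or lower. Formative against naive WT cells is the exception, because the authors' deposited table holds DiffBind's log2 fold and adjusted p from single libraries. RNA and H3K4me1 values in the table come from libraries outside this series and are the authors' values. RNA levels are given for WT cells and for 3 mutant genotypes, CKO, DKO and dCD as the columns name them, dCD being cells with catalytically dead MLL3 and MLL4.

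As a check of the labels, RNA of the targeted genes was lower in DKO than in WT cells in the authors' deposited table, with a log2 fold of -1.15 in naive and -0.91 in formative cells for Kmt2c, and of -0.72 and -0.84 for Kmt2d. The other genotypes had similar values in part, with -1.06 in naive and -0.95 in formative CKO cells for Kmt2c and -0.81 in formative dCD cells for Kmt2d, so this check does not single out DKO cells. Cells labelled formative had WT log2 RNA folds against naive cells at or past 2-fold lower for 7 of 8 naive markers and higher for 4 of 4 formative markers with a value. Over all regions, the median log2 difference was -0.10 for naive DKO against naive WT and -0.63 for formative DKO against formative WT. How the authors scaled the 4 groups to each other is not given in the sources used here, and other scalings move these medians to between -0.67 and 0.19 and between -1.26 and 0.13. The deposited level also falls about as the square of region width (exponent -1.999 in naive WT and -2.015 in formative WT), so levels were compared within a region only.

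To show the DNA under the regions that the results turn on, the following are the 250 bases before a TSS of the 2 inhibitor genes and the middle 200 bases of the Ccnd1 and Cdk6 regions with the largest loss of H3K27ac in formative WT cells, 5′ to 3′. Promoters are from RefSeq's table for GRCm38.p6, the assembly of mm10, and the region centres from its genome sequence. Capitals in the Cdkn1a promoter mark ACATGT, the core of the p53 response element, and capitals in the Cdkn1b promoter mark the CCAAT box and, for binding by Sp and KLF factors, GGGCGG.
Cdkn1a, chr17:29090729-29090978, plus strand: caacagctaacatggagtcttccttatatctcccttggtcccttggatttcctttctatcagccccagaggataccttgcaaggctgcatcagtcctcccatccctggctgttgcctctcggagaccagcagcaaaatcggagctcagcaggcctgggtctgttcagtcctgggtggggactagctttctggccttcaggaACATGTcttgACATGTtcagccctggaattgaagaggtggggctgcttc
Cdkn1b, chr6:134920151-134920400, plus strand: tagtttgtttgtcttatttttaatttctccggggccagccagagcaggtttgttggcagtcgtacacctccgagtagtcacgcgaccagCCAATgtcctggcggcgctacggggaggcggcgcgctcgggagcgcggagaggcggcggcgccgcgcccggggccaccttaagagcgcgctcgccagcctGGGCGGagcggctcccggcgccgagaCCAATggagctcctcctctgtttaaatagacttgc
Ccnd1 region centre, chr7:145034384-145034583, plus strand: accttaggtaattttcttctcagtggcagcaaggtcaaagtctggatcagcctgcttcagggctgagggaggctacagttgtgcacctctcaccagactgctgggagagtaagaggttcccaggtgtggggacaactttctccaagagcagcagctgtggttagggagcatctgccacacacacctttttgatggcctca
Cdk6 region centre, chr5:3386625-3386824, plus strand: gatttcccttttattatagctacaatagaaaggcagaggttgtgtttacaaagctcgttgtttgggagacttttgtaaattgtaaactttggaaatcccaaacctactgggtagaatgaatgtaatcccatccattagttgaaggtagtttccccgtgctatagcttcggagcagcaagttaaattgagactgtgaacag
ACATGT stood at positions -49 and -39 of this Cdkn1a promoter, counted from its TSS. RefSeq's table gives Cdkn1a a second promoter, chr17:29093519-29093768, which overlaps no region of the table and holds GGGCGG at -104 and -46 but not ACATGT. Of 32851 promoters in the table, 4.58% hold ACATGT in the same 250 bases and 81, or 0.247%, hold it at least 2 times. CCAAT stood at -161 and -35 of the Cdkn1b promoter and GGGCGG at -61, and these letters are common, in 33.8% and 32.7% of the promoters. Motifs were read on both strands, and neither region centre held any of the 9 searched. Besides the motifs in capitals above these were the E2F site TTTCCCGC with its variant TTTGGCGC, the TATA box (letters TATAAA), the canonical E-box (letters CACGTG), the octamer site ATGCAAAT and the STAT site TTCNNNGAA. The octamer letters stood in 1.60% and the E2F site in 0.895% of the promoters. A match describes the letters only. ACATGT was added to the search after the sequences were seen.

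In WT cells, H3K27ac around the D-type cyclin genes and Cdk6 fell at more regions than it rose between the naive and formative states, and the 1 region of each inhibitor gene did not pass the test. By DiffBind at an adjusted p under 0.05, taken from the authors' deposited table, 18 of 53 member regions fell and 6 rose, against 15.8% of all regions that fell and 20.8% that rose. The median log2 fold of the member regions was -0.52, against 0.56 for all regions. Ccnd3 had 7 of 12 regions that fell and 0 that rose, Cdk6 had 6 that fell and 3 that rose of 24, Ccnd1 had 3 that fell and 1 that rose of 7, and Ccne1 had 2 that fell and 2 that rose of 8. All 6 member regions that rose had a DiffBind concentration, the mean log2 signal over the WT libraries, under 6. Of the 32 member regions at or above 6, 17 fell and 0 rose, against 27.01% and 16.48% of all regions at or above 6, a limit chosen after the values were seen. At an unadjusted DiffBind p under 0.05 in the authors' deposited table, 0 of these 32 and 0 of the Ccnd3 regions rose.

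**Figure D1:**
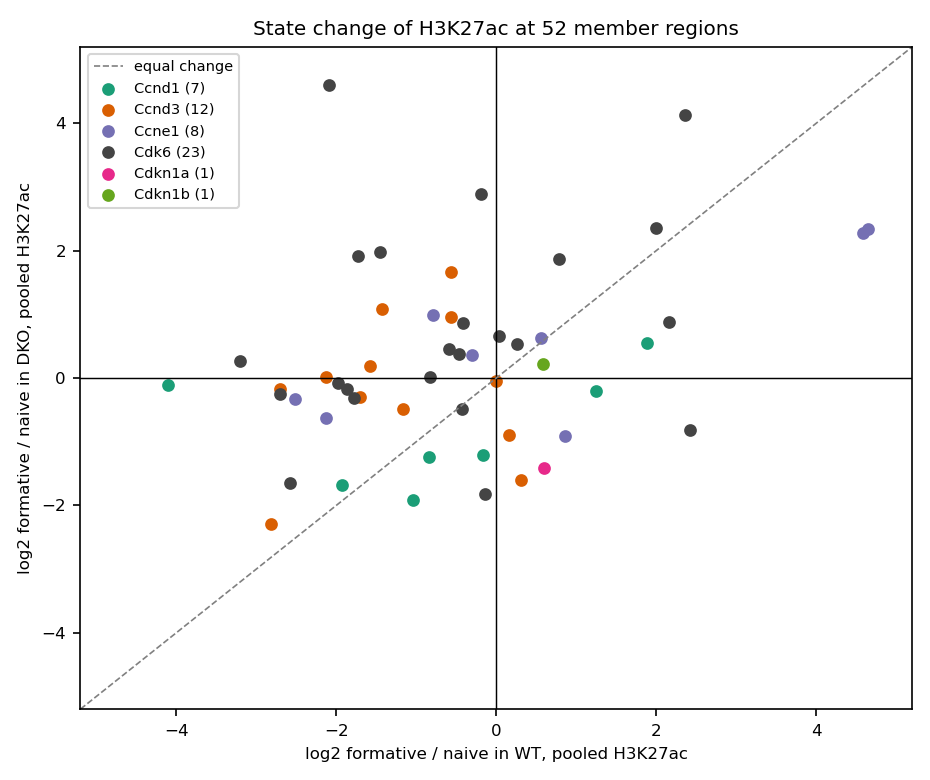
Log2 change of H3K27ac between the formative and naive states for each member region, in DKO cells (vertical axis) and in WT cells (horizontal axis), by gene, from the pooled group values. Points far to the left that stay near 0 on the vertical axis are regions that fell in WT cells and differed little between states in DKO cells, which include the Ccnd1 region 94.6 kb upstream of its TSS and the region over the Cdk6 start.

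Ccnd1 encodes cyclin D1, and its gene lies on the minus strand at chr7:144929931-144939925 (mm10). The promoter region, chr7:144939409-144940879, had a pooled log2 level of 7.02 in formative DKO, 7.16 in formative WT, 8.69 in naive DKO and 9.09 in naive WT cells. Levels of both genotypes were thus lower in the formative state, by 1.93 on the log2 scale in WT cells (adjusted p = 0.000157 by DiffBind, from the authors' deposited table) and with a difference of -1.68 in DKO cells, which has no test. An intergenic region 94.6 kb upstream, chr7:145033176-145035792, whose centre is printed above, had levels of 4.71 in formative DKO, 4.10 in formative WT, 4.82 in naive DKO and 8.20 in naive WT cells. Naive WT cells alone were high there, and the DiffBind fold in the authors' deposited table was -4.32 (adjusted p = 6.13e-27), the lowest among the member regions. An intergenic region 57.8 kb upstream rose, with levels of 7.23 in formative DKO, 8.39 in formative WT, 6.68 in naive DKO and 6.50 in naive WT cells (fold 2.04, adjusted p = 0.0228 by DiffBind, from the authors' deposited table). The 100 kb limit fell between that -94.6 kb region and a further Ccnd1 region 108.6 kb upstream, which had a DiffBind fold of 2.95 in the authors' deposited table.

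Ccnd3 encodes cyclin D3, and its gene spans chr17:47505051-47599691 on the plus strand with an upstream and a downstream TSS. All 12 of its regions touched the gene body. The region at the downstream TSS, chr17:47592977-47594617, had levels of 6.91 in formative DKO, 6.72 in formative WT, 6.72 in naive DKO and 8.30 in naive WT cells, so that naive WT cells stood above the other groups. Its fold in WT cells was -1.57 (adjusted p = 0.000692 by DiffBind, from the authors' deposited table). The largest fall was in an intronic region, chr17:47568420-47573789, with levels of 3.96 in formative DKO, 5.79 in formative WT, 6.25 in naive DKO and 8.61 in naive WT cells (fold -2.78, adjusted p = 7.12e-26 by DiffBind, from the authors' deposited table). Both the state and the genotype went with a lower level there, and formative DKO cells were lowest. The last of the 12 regions also covers Bysl, whose transcripts overlap the end of Ccnd3, so its signal cannot be given to one gene.

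Ccne1 encodes cyclin E1 and lies on the minus strand at chr7:38097984-38107534. Its promoter region, chr7:38106980-38109088, had levels of 7.45 in formative DKO, 6.06 in formative WT, 8.08 in naive DKO and 8.19 in naive WT cells. It fell by 2.13 on the log2 scale in WT cells (adjusted p = 2.09e-08 by DiffBind, from the authors' deposited table), and the state difference in DKO cells was -0.63. A narrow neighbour, chr7:38109493-38109951, went the other way, with levels of 6.60 in formative DKO, 9.85 in formative WT, 4.32 in naive DKO and 5.26 in naive WT cells (fold 4.71, adjusted p = 0.00202 by DiffBind, from the authors' deposited table). Both genotypes were higher in the formative state in that region, and formative WT cells were highest.

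Cdk6 encodes the kinase partner of the D-type cyclins and spans chr5:3341485-3531008 on the plus strand. The region over its start, chr5:3341041-3347527, which the file annotates as 5′ UTR, had levels of 4.72 in formative DKO, 5.00 in formative WT, 4.80 in naive DKO and 6.98 in naive WT cells. It fell by 2.07 on the log2 scale in WT cells (adjusted p = 7.45e-20 by DiffBind, from the authors' deposited table), and the state difference in DKO cells was -0.08. Naive WT cells alone were high. The intronic region whose centre is printed above, chr5:3385938-3387513, had levels of 7.35 in formative DKO, 5.91 in formative WT, 7.08 in naive DKO and 9.12 in naive WT cells, with the lowest DiffBind fold of the gene (-3.24, adjusted p = 2.39e-16, from the authors' deposited table). An intergenic region 56.7 kb upstream had the highest DiffBind fold in the authors' deposited table, 5.99 (adjusted p = 0.000364), at levels of 10.45 in formative WT, 8.07 in naive DKO and 3.42 in naive WT cells, and is the region listed at 0 in formative DKO cells.

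Cdkn1a and Cdkn1b, the inhibitor genes, each had 1 region, at the promoter. For Cdkn1a this is the upstream promoter, here and below, and the second promoter that RefSeq gives the gene overlaps no region. The Cdkn1a region, chr17:29090087-29091528, had levels of 8.78 in formative DKO, 7.91 in formative WT, 10.19 in naive DKO and 7.31 in naive WT cells. The Cdkn1b region, chr6:134919574-134920996, had levels of 9.15 in formative DKO, 8.79 in formative WT, 8.92 in naive DKO and 8.21 in naive WT cells. In both regions naive WT cells were lowest. Neither changed between states in WT cells by DiffBind in the authors' deposited table, at folds of 0.63 (adjusted p = 0.421) for Cdkn1a and 0.58 (adjusted p = 0.381) for Cdkn1b. Some regions around the inhibitor genes are assigned to neighbouring genes. Within 100 kb of the Cdkn1a TSS 16 of 29 such regions fell and 0 rose by DiffBind in the authors' deposited table. All 6 assigned to Trp53cor1 were among them (folds of -5.40 to -0.95). Around Cdkn1b 4 of 21 fell and 0 rose. Over all regions 15.8% fell and 20.8% rose, so the share that fell around Cdkn1b was near that of all regions.

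**Figure D2:**
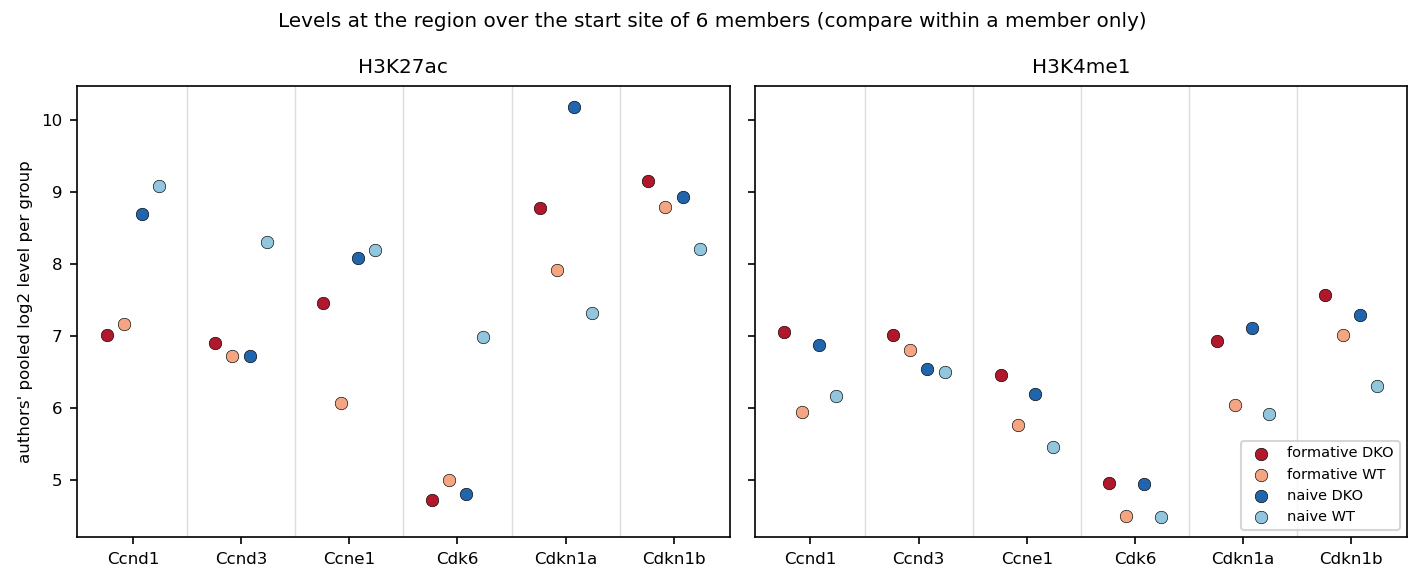
Deposited values at the region of each member that lies at its TSS, for H3K27ac and H3K4me1 in formative DKO, formative WT, naive DKO and naive WT cells (log2 axis, 1 pooled value per group, no error). For Cdkn1a this is the upstream TSS and for Ccnd3 the downstream TSS. Naive WT cells are highest in H3K27ac at Ccnd1, Ccnd3, Ccne1 and Cdk6 and lowest at Cdkn1a and Cdkn1b.

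Loss of MLL3 and MLL4 went with less H3K27ac around Cdk6 and Ccnd3 in naive cells, and with more at the upstream Cdkn1a promoter. Naive DKO cells were at least 2-fold lower than naive WT cells in 28 of 52 member regions and higher in 3, against 26.3% of all regions lower and 19.2% higher. The median log2 difference was -1.08 for the member regions and -0.10 for all regions. Cdk6 had 17 lower and 1 higher of 23, with a median of -1.85, and Ccnd3 had 10 lower and 0 higher of 12, with a median of -1.58. Ccnd1 had 1 lower and 1 higher of 7, and Ccne1 had 0 of 8 in either direction. The count of lower member regions lay between 24 and 36 under the other scalings tried, against 20.8% to 40.3% of all regions.

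**Figure D3:**
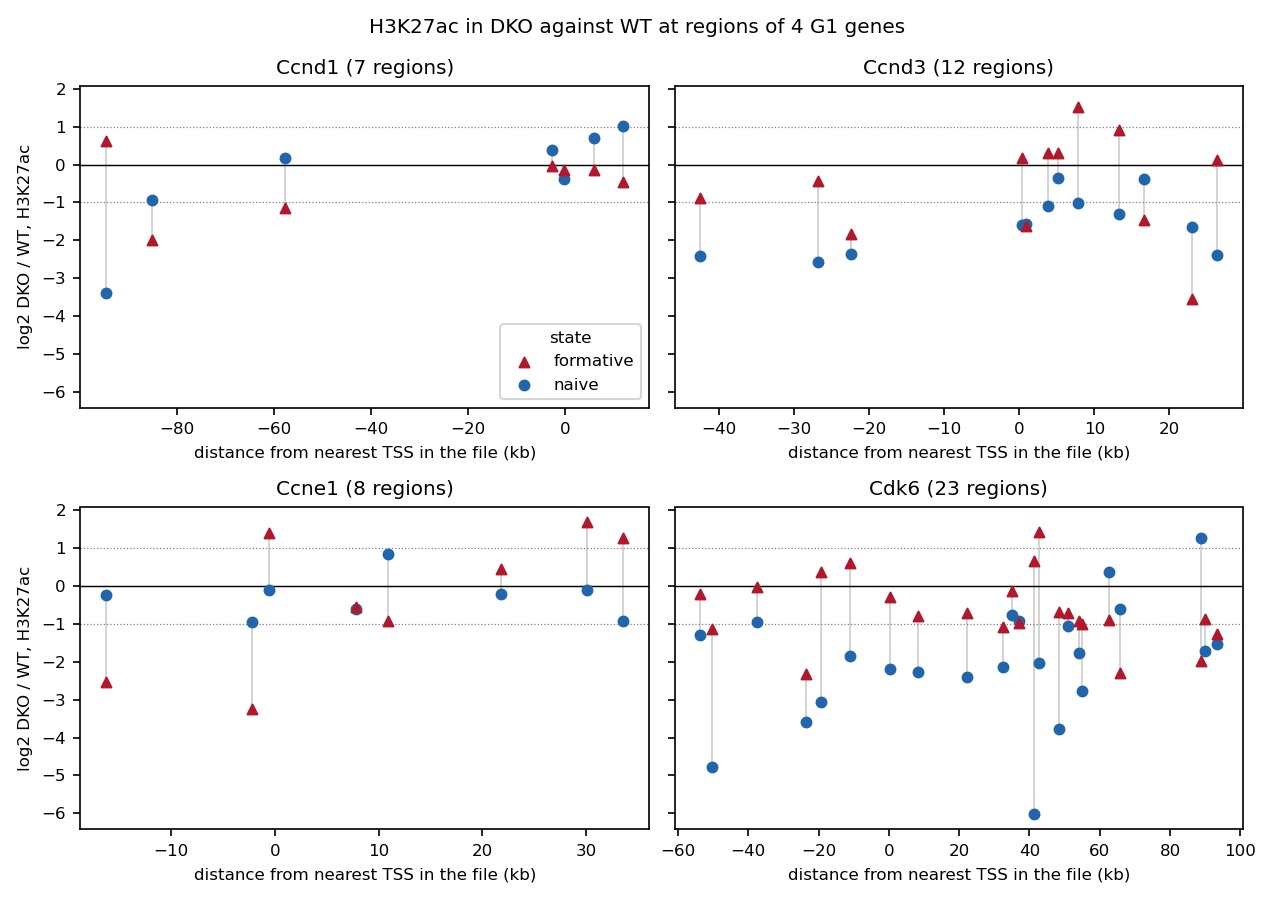
Log2 difference of H3K27ac between DKO and WT cells for each region of Ccnd1, Ccnd3, Ccne1 and Cdk6 (vertical axis), in formative and naive cells. The horizontal axis is the distance from the TSS in kb, negative upstream. Regions of Cdkn1a and Cdkn1b are not drawn. For Ccnd3 the distance is from the nearer of its upstream and downstream TSSs. In naive cells 3 of 7 Ccnd1, 12 of 12 Ccnd3, 7 of 8 Ccne1 and 21 of 23 Cdk6 regions lie below 0. The highest naive point is a Cdk6 region at 1.27.

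The Cdk6 regions extended from 53.6 kb upstream of the TSS to 93.5 kb downstream among those compared, and 21 of 23 were lower in naive DKO than in naive WT cells. The widest of them, over the start, differed by -2.18, or 4.54 times. A narrow intronic region, chr5:3385094-3385530, had the lowest value, -6.03, with levels of 8.84 in formative DKO, 8.17 in formative WT, 4.23 in naive DKO and 10.27 in naive WT cells. Naive DKO cells alone were low in that region, whereas at the Cdk6 start naive WT cells alone were high. An upstream region at chr5:3292413-3294717 differed by -4.77, with levels of 6.08 in formative DKO, 7.21 in formative WT, 4.17 in naive DKO and 8.94 in naive WT cells. The 1 region at least 2-fold higher in naive DKO cells was 88.7 kb downstream (1.27).

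All 12 Ccnd3 regions were lower in naive DKO than in naive WT cells, between -2.57 and -0.36. Median differences were -1.32 for the 7 regions nearest the upstream TSS and -2.36 for the 5 nearest the downstream TSS. The lowest was an intronic region, chr17:47565113-47568174, with levels of 6.46 in formative DKO, 6.89 in formative WT, 6.45 in naive DKO and 9.02 in naive WT cells. Naive WT cells were again the high group. At Ccnd1, the region 94.6 kb upstream was lower by 10.4 times in naive DKO cells (-3.38), while the promoter differed by -0.39 and a region in the neighbouring gene LTO1, chr7:144927213-144928503, was higher (1.01).

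The upstream Cdkn1a promoter was 7.33 times higher in naive DKO than in naive WT cells (2.87), the largest positive difference among the 52 regions. The Cdkn1b promoter differed by 0.71. Promoter regions as a class were higher in naive DKO cells (median 0.58 over 5452 promoters, 30.9% at least 2-fold higher), and the Cdkn1b value was near that median. The 4 member regions that the file labels as promoters differed by -0.39 at Ccnd1, -0.11 at Ccne1, 2.87 at Cdkn1a and 0.71 at Cdkn1b.

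In formative cells the differences between genotypes around the members were no more frequent than elsewhere. Formative DKO cells were at least 2-fold lower than formative WT cells in 15 of 52 member regions and higher in 5, against 39.3% of all regions lower and 11.2% higher. The median was -0.50, against -0.63 for all regions, and it turned positive when the group medians (0.27) or distributions (0.21) were set equal. Cdk6 had 7 lower and 1 higher of 23, Ccnd3 had 4 lower and 1 higher of 12, Ccnd1 had 2 lower and 0 higher of 7, and Ccne1 had 2 lower and 3 higher of 8. The Ccne1 promoter was among those higher (1.39), and its narrow neighbour among those lower (-3.25). The start of Cdk6 differed by -0.28, the downstream start of Ccnd3 by 0.18, the Cdkn1a promoter by 0.87 and the Cdkn1b promoter by 0.36. Of the 52 regions, 8 were at least 2-fold lower in DKO cells in both states, 20 in naive cells only and 7 in formative cells only. Over all regions these classes held 14.1%, 12.3% and 25.2%, and the classes rest on size, with no test of the difference between states.

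**Figure D4:**
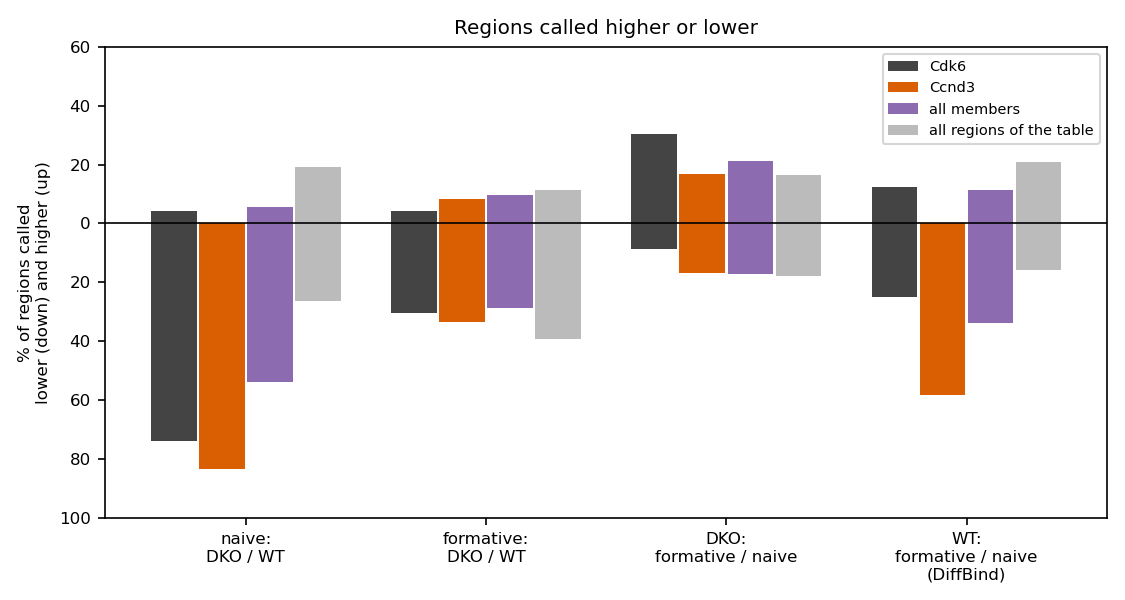
Share of regions called higher (upward) or lower (downward) in percent (vertical axis), among Cdk6 regions, Ccnd3 regions, all member regions and all regions. Comparisons with DKO cells are called at 2-fold on the pooled values. Formative against naive WT cells are called by DiffBind at an adjusted p under 0.05. In naive DKO against naive WT cells 53.8% of the member regions and 26.3% of all regions were lower, and in formative DKO against formative WT cells the shares were 28.8% and 39.3%.

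Within DKO cells, fewer member regions differed by 2-fold between the formative and naive states than in WT cells. The same held over all regions, so this drop is not particular to the members. It is a comparison of sizes without a test. Formative DKO cells were at least 2-fold higher than naive DKO cells in 11 of 52 member regions and lower in 9, against 16.6% and 17.9% of all regions, with a median of 0.02. From the same pooled values formative WT cells were higher than naive WT cells in 8 and lower in 21, against 38.1% and 18.9% of all regions. Of the 18 regions that fell in WT cells by DiffBind, 3 had a state difference in DKO cells of -1 or below, and the medians over the 18 were -0.21 in DKO and -1.95 in WT cells. Among all 17373 regions chosen by the same fall in WT cells, 31.9% had a state difference in DKO cells of -1 or below, with medians of -0.60 in DKO and -2.004 in WT cells. The choice on WT values itself makes the WT median low. The difference of the state changes, DKO minus WT, was at least 1 on the log2 scale in 24 member regions and at most -1 in 12, against 19.5% and 36.3% of all regions, with a median of 0.84 (-0.39 over all regions). It was 3.99 in the Ccnd1 region 94.6 kb upstream, 1.90 at the Cdk6 start and -2.01 at the Cdkn1a promoter. These comparisons share the naive WT and naive DKO values, so a region that is high in naive WT cells alone enters each of them.

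At the 4 promoters H3K4me1 was higher in DKO than in WT cells in both states in the authors' deposited table, with naive log2 differences of 0.71 at Ccnd1, 0.74 at Ccne1, 1.20 at Cdkn1a and 0.99 at Cdkn1b, and formative ones of 1.10, 0.70, 0.89 and 0.55 in the same order. The median over all 5537 promoters was 0.67 in naive and 0.66 in formative cells. Cdkn1a in naive and Ccnd1 in formative cells were at least 2-fold higher, as were 18.3% and 18.4% of all promoters in these states. The other values were below 2-fold and nearer to the promoter median. The Cdk6 start had 0.45 in both states. At Ccnd3 the region at the downstream TSS had 0.04 in naive and 0.21 in formative cells, and the region 0.91 kb from the upstream TSS, chr17:47505722-47506200, had -1.26 and -1.14. Over all member regions, more were lower than higher: naive DKO cells were at least 2-fold lower in 13 of 53 member regions and higher in 2 (18.7% and 4.99% of all regions with a value), and formative DKO cells in 12 and 5 (16.0% and 10.5%). Cdk6 held 9 of the 13 in naive cells, the lowest being chr5:3305784-3306970, 37.5 kb upstream (-2.55), where H3K27ac differed by -0.96. Over the 52 regions, Spearman's rho between the H3K4me1 and H3K27ac differences was 0.50 in naive and 0.15 in formative cells, and over 105536 regions 0.29 and 0.26. Regions are not independent, share the groups' libraries and the division by width, and the values are a description only.

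The table gave RNA values for 5 of the 7 genes. Ccnd2 and Cdkn1a have none, so the acetylation of the Cdkn1a promoter has no RNA value beside it. The unit under the log is not stated, so levels were compared within a gene only, and with 1 value per genotype the order of close levels has no spread to be judged by. In bulk samples, fewer cells that express a gene and less RNA per cell cannot be told apart.

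Ccnd1 had log2 RNA levels in the authors' deposited table of 6.12 in dCD, 6.44 in CKO, 7.12 in DKO and 7.02 in WT formative cells. In naive cells it had 5.19 in dCD, 6.94 in CKO, 7.49 in DKO and 6.58 in WT cells. The order in naive cells was thus DKO, CKO, WT and dCD from the top, and dCD cells were lowest in both states. The authors' deposited log2 folds against WT in naive cells were -1.39 for dCD, which passed 2-fold, and 0.91 for DKO, which did not. Of the 9781 genes, 5.19% were at least 2-fold lower in naive dCD cells. In formative cells the fold was -0.91 for dCD and 0.09 for DKO.

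Cdk6 RNA was lowest in dCD cells. Its log2 levels in the authors' deposited table were 4.53 in dCD, 6.14 in CKO, 6.29 in DKO and 6.17 in WT formative cells, and 5.66 in dCD, 6.64 in CKO, 6.38 in DKO and 6.54 in WT naive cells. Levels in CKO, DKO and WT cells thus lay between 6.14 and 6.29 in formative and between 6.38 and 6.64 in naive cells, and dCD cells were below them. In the authors' deposited table dCD formative cells had a fold of -1.64 against WT (3.62% of genes at least 2-fold lower), and dCD naive cells one of -0.88. DKO cells had -0.15 in the naive state, in which 17 of 23 Cdk6 regions had at least 2-fold less H3K27ac, and 0.11 in the formative state. The deposited state change of Cdk6 RNA was -1.13 in dCD cells (8.71% of genes at least 2-fold lower) and -0.10 in DKO cells, against -0.36 in WT cells.

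Ccnd3 had log2 RNA levels in the authors' deposited table of 3.08 in dCD, 3.07 in CKO, 2.92 in DKO and 3.23 in WT formative cells, and 4.47 in dCD, 4.06 in CKO, 3.64 in DKO and 3.96 in WT naive cells. These values were given with the 5 regions nearest the downstream TSS and with none of the 7 nearest the upstream TSS. All 4 genotypes were lower in the formative state, by authors' deposited folds of -1.40 in dCD, -0.99 in CKO, -0.72 in DKO and -0.73 in WT cells, of which dCD passed 2-fold. DKO cells differed from WT cells by -0.32 in both states. Ccne1 varied little: its lowest level was 7.43 in formative CKO cells and its highest 8.09 in formative DKO cells, and no fold in the authors' deposited table passed 2-fold in either direction.

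Cdkn1b RNA was highest in dCD cells, with log2 levels in the authors' deposited table of 6.67 in dCD, 5.93 in CKO, 5.86 in DKO and 5.28 in WT formative cells. In naive cells the levels were 5.91 in dCD, 5.31 in CKO, 5.61 in DKO and 5.30 in WT cells. All 3 mutant genotypes were above WT in the formative state, by 1.39 for dCD (4.72% of genes were at least 2-fold higher), 0.66 for CKO and 0.58 for DKO in the authors' deposited table. The genotypes share the WT values, so the 3 folds are not independent. No measured member passed 2-fold in the other 7 fold columns of the authors' deposited table. Over all genes, the shares at least 2-fold higher and lower in formative than in naive cells were 17.1% and 9.65% in WT, 16.7% and 8.70% in CKO, and 18.0% and 5.15% in DKO cells. For CKO against WT they were 3.64% and 4.78% in formative and 3.85% and 4.80% in naive cells, and for DKO against WT they were 5.87% and 5.05% in formative and 8.54% and 11.2% in naive cells. In naive dCD cells 8.05% of genes were at least 2-fold higher than in WT cells, and 14.9% were higher in formative than in naive dCD cells.

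**Figure D5:**
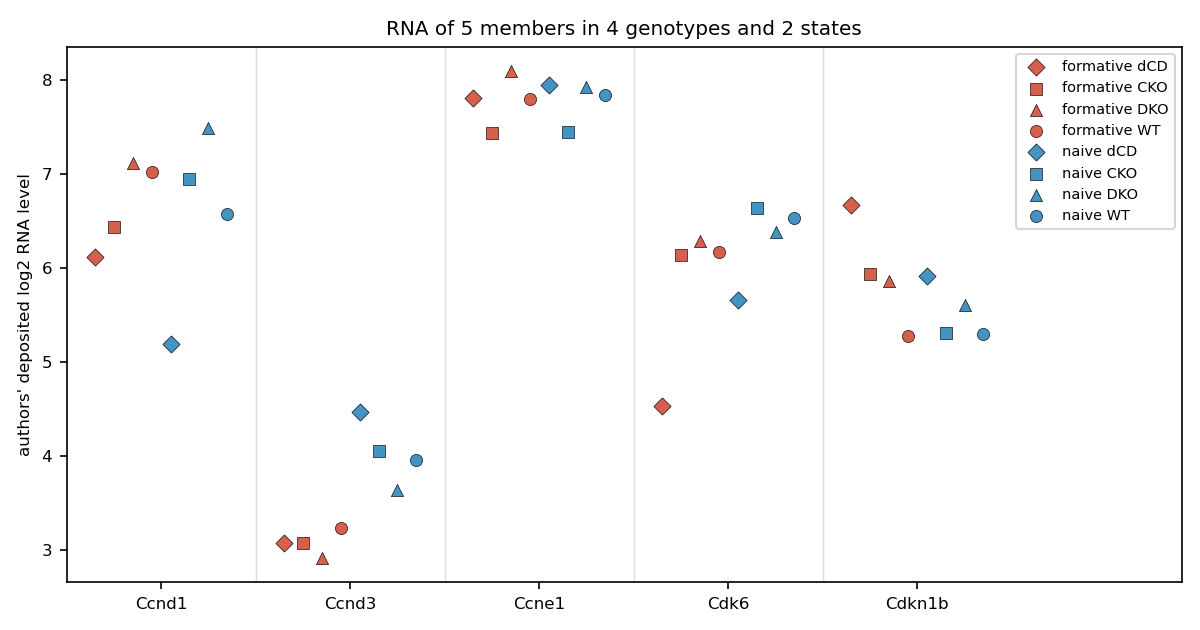
Log2 RNA level of the 5 members with RNA values in dCD, CKO, DKO and WT cells, formative and naive (1 deposited value per point, no error). The dCD points are lowest for Cdk6 and Ccnd1 in both states and highest for Cdkn1b.

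The genes most like each member were those with the smallest Euclidean distance over the 10 RNA fold columns among 9781 genes. The nearest to Ccnd1 was Ctnnal1 (0.99), and the nearest pairs were, for Ccnd3, Zfp607a (0.36) and Polr2e (0.52), for Ccne1 Dnajc16 (0.35) and Erlin2 (0.36), for Cdk6 Bcorl1 (1.21) and Slc39a1 (1.31), and for Cdkn1b Nedd1 (0.69) and Snx13 (0.71). Cdk6 and Ccnd1 had no gene as near as those of the other 3 members.

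Over the cell-cycle genes outside the set, the regions had medians nearer to 0 in naive DKO against naive WT cells than those of Cdk6 and Ccnd3. The other G1/S genes, such as further CDKs, E2F factors and Rb family genes, had a region for 25 of 26, and in WT cells 31 of 204 regions fell and 28 rose by the deposited DiffBind test. In naive DKO against naive WT cells 45 of their 200 regions were at least 2-fold lower and 36 higher, with a median of -0.04, and in formative cells 67 were lower and 29 higher, with a median of -0.51. Regions of the G2/M genes had medians of 0.23 in naive and 0.38 in formative cells, with 15 and 11 of 75 lower and 15 and 20 higher, and in WT cells 13 fell and 2 rose. These are descriptions, without a test of the difference between the lists.

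Among inhibitors of the same pathway, RNA of Cdkn2b, which encodes the CDK4/6 inhibitor p15, was at least 2-fold higher in DKO than in WT cells in the authors' deposited table, with log2 folds of 2.91 in formative and 1.18 in naive cells, at levels of 2.85 in formative DKO, -0.06 in formative WT, 1.79 in naive DKO and 0.61 in naive WT cells. Cdkn2c, which encodes p18, was higher in naive DKO cells (1.51) and differed by 0.16 in formative ones. Its levels were low, at 1.97 in naive DKO and 0.45 in naive WT cells. Of the 18 other G1/S genes with RNA values these were the 2 past 2-fold in naive DKO cells (8.54% of all genes higher), and Cdkn2b was the 1 in formative DKO cells (5.87%). Between states in WT cells, RNA of Rb1, which encodes the retinoblastoma protein, was at least 2-fold higher in the formative state (1.04) and that of Cdkn2d, another CDK4/6 inhibitor, lower (-1.12). In formative CKO against formative WT cells Mycn (-1.12) and Cdkn2c (-1.07) of this list and the mitotic kinase gene Plk1 (-1.07) of the G2/M list were lower. The Cdkn2c fold rests on low levels, -1.24 in formative CKO and -0.17 in formative WT cells.

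The p53 list, which holds Trp53 and target genes other than Cdkn1a, had a region for 17 of 18 genes. In naive DKO against naive WT cells 27 of their 107 regions passed 2-fold upward and 19 downward, with a median of 0.15, and in formative cells 30 were higher and 19 lower, with a median of 0.24. In WT cells 22 of 111 regions fell and 15 rose. Of 15 genes with RNA values, 1 was at least 2-fold higher in naive DKO cells (8.54% of all genes), Perp (3.27), which encodes a membrane protein of cell junctions and apoptosis. In formative DKO cells 3 were higher, Perp (1.49), Gadd45a (1.36) and Sesn1 (1.09), and 1 was lower, Pmaip1 (-1.54), which encodes the apoptosis factor NOXA. Of all genes, 5.87% were higher and 5.05% lower. Gadd45a and Sesn1 also passed 2-fold against WT in formative CKO (1.04 and 1.32) and formative dCD cells (1.25 and 1.09). Pmaip1 was higher in CKO cells (1.97 in formative and 2.65 in naive ones), and Plk2 was lower in formative CKO cells (-1.08). Between states in WT cells 4 of the 15 were higher in the formative state, Pmaip1 (3.29), Bbc3 (1.52), Perp (1.29) and Plk2 (1.22), and 0 were lower. The shares of all genes were 17.1% and 9.65%. These are the authors' deposited folds.

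Markers of other cell types moved with naive DKO and naive dCD cells. In the authors' deposited table RNA of 3 of 4 trophoblast markers with values and 2 of 2 primitive endoderm markers was at least 2-fold higher in naive DKO than in naive WT cells. Gata6 and Krt7 had the same low log2 level in naive WT cells, -1.59, and Gata6 had -0.54 in naive DKO cells. Their folds against naive WT cells, also those of dCD cells below, rest on that low level. The log2 of the summed level was 7.69 in naive DKO and 7.04 in naive WT cells for the trophoblast list, and 4.67 and 1.92 for the primitive endoderm list. No RNA value was given for the trophoblast markers Cdx2, Eomes and Elf5 or for the primitive endoderm markers Gata4, Sox17, Pdgfra and Sox7. Naive dCD cells had the Ccnd1 RNA value past 2-fold. In them 3 of 4 trophoblast and 2 of 2 primitive endoderm markers were at least 2-fold higher than in naive WT cells. Log2 summed levels in naive dCD and naive WT cells were 6.99 and 7.04 for the trophoblast list and 5.67 and 1.92 for the primitive endoderm list. Of 8 naive markers 1 was at least 2-fold lower, Esrrb (-1.25), and 0 were higher. The naive list had summed levels of 11.18 and 11.39. In formative dCD against formative WT cells, where Cdk6 and Cdkn1b passed 2-fold, none of these trophoblast and primitive endoderm markers did. Summed levels were 6.60 and 6.13 for the trophoblast and 4.61 and 3.85 for the primitive endoderm list. Markers of other lists passed 2-fold there. Col1a2 (2.47) of 3 fibroblast markers was higher, and of the 2 neural markers Sox1 was higher (1.66) and Nes lower (-1.43). Nr0b1 (1.19) of 8 naive markers was higher and Fgf5 (-1.55) of 4 formative markers lower. In formative DKO against formative WT cells 2 of 3 fibroblast markers were higher and 1 lower, with a log2 summed level of 4.46 and 3.58, and 1 of 2 neural markers was higher, with 6.11 and 5.89. State markers also passed 2-fold in DKO cells. In naive DKO against naive WT cells Klf4 (1.85) of 8 naive markers was higher and Nr0b1 (-1.82) lower. Sox3 (-1.91) of 4 formative markers was lower. In formative DKO against formative WT cells the naive markers Nr0b1 (2.29) and Esrrb (1.02) were higher, and the formative marker Sox3 (-2.33) was lower. The part of these markers in the differences was not tested.

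The assignment to the nearest TSS leaves parts of some member loci to neighbours. Within 100 kb of the Ccnd2 TSS, on the minus strand at chr6:127125162-127152193, lay 9 regions, all assigned to Fgf23, Tigar, 9330179D12Rik or Gm38404, with medians of -1.18 in naive DKO against naive WT and -1.62 in formative DKO against formative WT cells. One of them, chr6:127136717-127137746, lies in a Ccnd2 intron, and had levels of 6.21 in formative DKO, 8.15 in formative WT, 5.49 in naive DKO and 5.60 in naive WT cells. Formative WT cells were highest there. Around Cdkn1b, 5 regions assigned to the noncoding gene Lockd, 6.93 to 25.6 kb downstream of the Cdkn1b TSS, were all at least 2-fold higher in naive DKO than in naive WT cells, with medians of 1.67 in naive and 0.14 in formative cells. Other neighbours of Cdkn1b were lower, with 5 of 6 Gpr19 regions and 4 of 6 Crebl2 regions past 2-fold in naive cells (medians of -1.42 and -2.25), and the median over all 21 neighbour regions was -0.77. Around Cdkn1a, 6 regions assigned to Trp53cor1, which encodes the noncoding lincRNA-p21, had medians of 0.32 in naive and 0.98 in formative cells, 5 of 7 Stk38 and 2 of 3 Cpne5 regions were at least 2-fold lower in naive DKO cells (medians of -1.30 and -1.42), and the median over all 29 neighbour regions was -0.17 in naive cells. Around Ccnd3, 16 regions assigned to Taf8, 1700001C19Rik and Bysl had a naive median of 0.27, with 3 higher and 1 lower past 2-fold. The 9 neighbour regions around Ccne1, assigned to Uri1 and 1600014C10Rik, had a naive median of -1.08, with 5 lower and 0 higher. Those around Ccnd1, 15 regions assigned to Fgf3, Fgf4, Fgf15 and LTO1, had a naive median of -0.57, with 6 lower and 2 higher. Over all regions of chromosome 6, which carries Ccnd2 and Cdkn1b, the medians were -0.48 in naive and -1.01 in formative cells, against 0.06 and -0.59 for chromosome 5, which carries Cdk6.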

How the data were processed

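H3K27ac CUT&Tag was run on 2 libraries in each of 4 groups of mouse ES cells. The submitters' processing notes name deepTools, DiffBind, SEACR, Bowtie2 and Trim Galore, without versions, and the mm10 build. The sources used here give neither their order nor their settings. A single table of 112137 regions and 47 columns was deposited. Its H3K27ac, H3K4me1 and RNA levels are the authors' deposited log2 values, with 1 value per group. For formative against naive WT cells the authors deposited DiffBind's p-value and adjusted p. Its other columns, as deposited, hold positions, nearest genes and annotations. Columns of samples that could not be mapped numbered 0.

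Differences were computed from the log2 levels with Python 3.11.15, pandas 2.3.3, numpy 2.4.6 and scipy 1.17.1, and drawn with matplotlib 3.10.9. The planned tests over single libraries could not be made on pooled values, so sizes are given, with a limit of 2-fold and regions above 0 in all 4 groups. The scaling steps were tested on simulated data. The columns hold no read counts, so the depth behind each value is unknown, and intervals for counting error could not be made. Every member was described. Regions named were those at a TSS, the highest and lowest past the limit in each comparison, and a few chosen after their values were seen. List genes were named where their RNA passed 2-fold in any genotype, and from these a selection is given. The members and lists were chosen with earlier results of these data known. Gene models are GENCODE vM21's. Of the members, 5 matched RefSeq's promoter table, all but Ccnd1 and Ccnd2. Alternatives tried were median centring, scaling on promoters, quantile normalization, a 1.5-fold limit, 50 kb, no filter on 0, other DiffBind limits and, added after the values were seen, a DiffBind concentration of at least 6.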

Additional observations from a re-analysis of the deposited data

How the results depend on the processing

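Of the counts and medians recomputed under an alternative for the main comparisons, 84 stayed within 1.5 times or 0.58 on the log2 scale and 41 did not. The lower count in naive DKO against naive WT cells stayed within that limit throughout, while its higher count was 6 with median centring, 1 with promoter scaling and 6 at 1.5-fold. The direction in formative DKO against formative WT cells turned with median centring and quantile normalization, from more regions lower to more higher. With median centring 15 regions were higher and 8 lower (median 0.27), with quantile normalization 17 and 8 (0.21), and with promoter scaling 1 and 28 (-1.13). At 1.5-fold 10 were higher and 25 lower, within 50 kb 8 were lower, and at a concentration of at least 6 there were 3 higher and 7 lower. In formative against naive DKO cells the higher count was 17 at 1.5-fold, 7 within 50 kb and 6 at a concentration of at least 6. Regions with a lower state change in DKO than in WT cells numbered 7 with median centring, quantile normalization or the 50 kb limit, and 4 at a concentration of at least 6. For WT cells the count that rose was 2 within 50 kb and 0 at a concentration of at least 6, where the median was -1.15. Naive H3K4me1 gave 6 higher and 7 lower with median centring. At 1.5-fold, RNA of 1 member was lower in formative than in naive WT cells, 1 higher and 1 lower in CKO, 1 lower in DKO and 2 higher in dCD cells. Against WT, naive cells then had 1 higher in DKO, and 1 higher and 2 lower in dCD, and formative cells had 1 higher and 1 lower in CKO, 1 higher in DKO and 2 lower in dCD. Where scaling moved a value, the scaling itself was the change, and for the others fewer regions or a lower limit. No paired analysis was possible because the values are pooled over the replicates of a group, and leaving out a replicate was not run for the same reason. Unknown depth limits what can be said of the narrow, low-signal regions.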
